A study of Mus musculus with 9 samples.

Results

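The comparison described here set both groups of mice that had received a helper-dependent adenoviral vector against mice that had received saline, so as to show what the vectors shared. It used all 9 arrays of the series, 6 from vector-treated and 3 from saline-treated mice, and all 18193 genes that had a probe set assigned to 1 gene, each read from its brightest probe set. All mice were female, lacked apolipoprotein E (APOE-/-) on a C57BL/6 background, were bought at 8 weeks of age and ate a diet with 0.2% cholesterol and 10% coconut oil for 30 weeks to bring on atherosclerosis. They then received 1 injection into the tail vein and were killed 10 days later. The HDAd-0 group received the empty vector, the HDAd-gE3 group received the same kind of vector carrying human apolipoprotein E3, and the PBS group received phosphate-buffered saline. Both vectors were given at the same labelled dose. Each group had 3 arrays, and each array held RNA pooled from 3 aortas cut from the sinus to the arch. The labels do not say which mice went into which pool, nor that the 3 arrays of a group held different pools. The p-values measure the spread between these arrays. The labels give no hour of killing, and the sample numbers in them do not interleave between groups, so that any order of processing and the group cannot be told apart. The series title is about interleukin-7 and how it bears on monocyte and macrophage arrest at the endothelium.

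A helper-dependent adenovirus is an adenoviral particle whose genome has had all viral coding genes removed. After injection into the blood most such particles are taken up by the liver and by its resident macrophages and sinus endothelium, and the capsid itself, even with an empty genome, can set off innate immune signalling. The aorta of an atherosclerotic mouse holds endothelium, smooth muscle, adventitial fibroblasts and lesion macrophages, with fat, nerve and, near the sinus, heart muscle attached. Several of the gene groups below are read out in many tissues: the circadian clock, the heat shock and endoplasmic reticulum chaperones, and the carbohydrate response element-binding protein (ChREBP), which switches on genes of fat synthesis when glucose is plentiful.

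The arrays were alike in their overall signal, with medians from 6.673 to 6.766 on the log2 scale and no pair correlated below 0.991 across probe sets. Over all arrays smooth muscle contractile genes averaged 12.7 and endothelial genes 10.23, so the defining markers of the aortic wall were present. The number of arrays limits the precision of every value. As a sign of RNA quality, the 3' signal of the Actb and Gapdh control probe sets exceeded the 5' signal by a log2 mean of 0.933 ± 0.163 (SD, n = 3) with HDAd-0, 0.735 ± 0.069 with HDAd-gE3 and 0.866 ± 0.071 with PBS. The arrays of the 3 groups overlapped on this measure. HDAd-gE3 replicate 4 was the highest array for the neutrophil and erythroid marker lists, and HDAd-0 replicate 5 for the liver and skeletal muscle marker lists.

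The mean change over both vectors against PBS, called the shared change below, passed the threshold (limma, Benjamini-Hochberg adjusted p under 0.05 over all genes) in 34 genes, 0.187% of the 18193 tested. Of these, 24 rose (0.132%) and 10 fell (0.055%). The sizes ran from 0.3322 to 1.985 on the log2 scale with a median of 0.5075, and 5 genes changed by more than 1. In all 34 the 6 vector arrays lay on 1 side of the 3 PBS arrays, which was the case for 7.29% of all genes. The 34 were picked on these same arrays, so this describes them and gives no separate support. At an unadjusted p under 0.05 there were 1343 genes higher (7.38% of all genes) and 1035 lower (5.69%), and the median difference over all genes was 0.0037. The mean was higher with the vectors in 51.33% of all genes, the share to set beside the counts of higher and lower means below. Genes of a list can move together, so those counts are descriptions. Taken singly against the same PBS arrays, HDAd-0 had 12 genes past the threshold (0.066% of all genes), 10 of them among the 34, and HDAd-gE3 had 23 (0.126%), 19 of them among the 34. Of the 34, 5 passed with each vector taken singly and 10 with neither. The shared change thus names the mean over both vectors, and a gene among the 34 need not pass in each vector alone. The count of 34 rested on the full set of arrays. It was 8, 44 and 7 without HDAd-0 replicates 3, 4 and 5, it was 0, 1 and 3 without HDAd-gE3 replicates 2, 3 and 4, and it was 0 without PBS replicate 1, 3 or 4 (limma, with 2436 genes at an unadjusted p under 0.05 without HDAd-gE3 replicate 2, and 2000, 1724 and 1475 without the PBS arrays). In each of these 9 fits all 34 genes kept their direction and an unadjusted p under 0.05, with changes between 0.846 and 1.112 times those with all arrays. The 34 were picked with these arrays included, so that too is a description. When the fit took in the RNA quality measure above, 6 genes passed, 5 of them among the 34. Centring the arrays on their medians gave 10 genes higher and 8 lower, and a second quantile normalization gave 7 and 7. With the scaling unchanged, the fit with the RNA quality measure gave 3 and 3. The vector arrays taken as 1 group gave 7 and 6, and a fit with an intensity trend gave 62 and 34. The split between rising and falling genes thus varied between fits, and the reason was not tested.

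**Figure D1:**
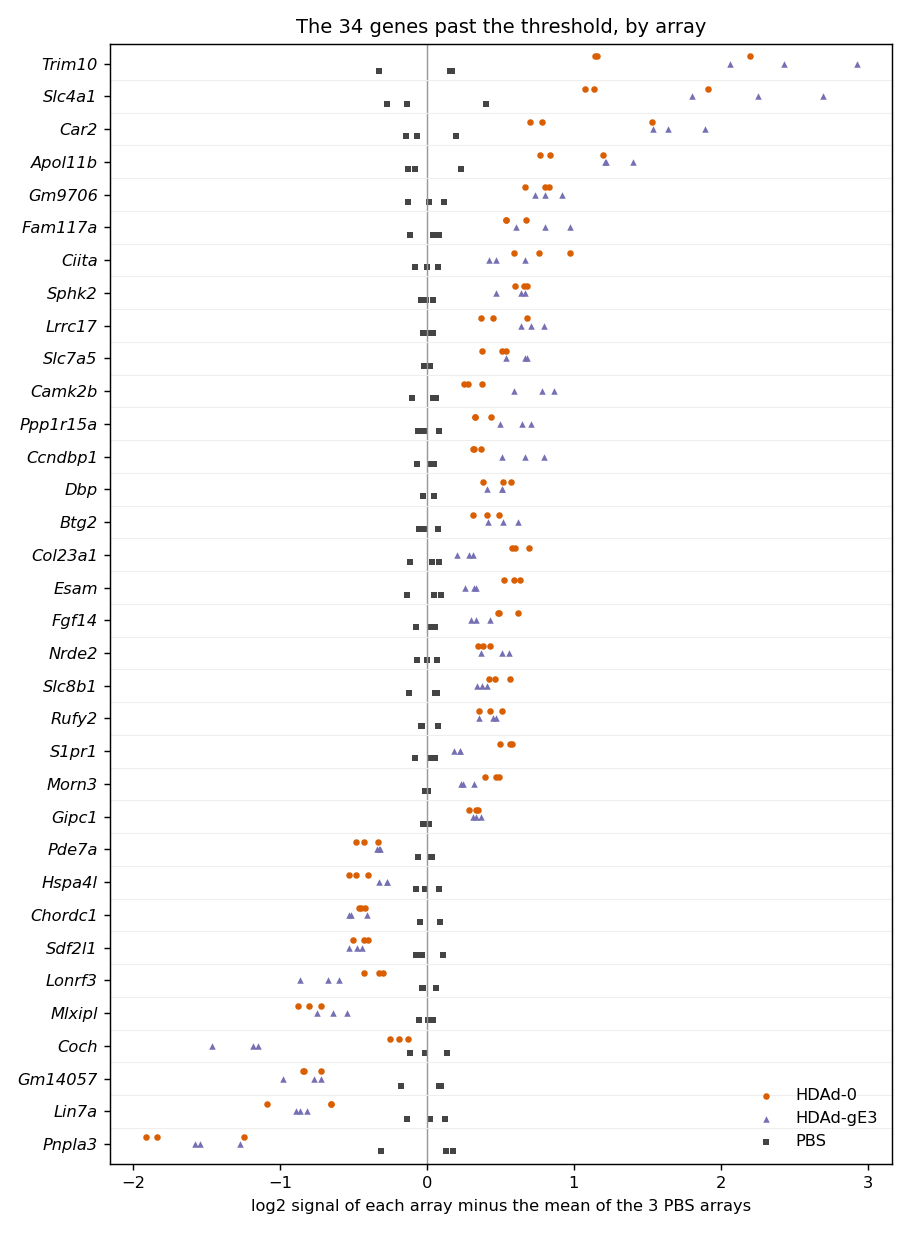
Log2 signal of each array minus the mean of the 3 PBS arrays (horizontal axis) for the 34 genes past the threshold (vertical axis, sorted by the shared change). Each point is 1 array, orange circles HDAd-0, purple triangles HDAd-gE3 and dark squares PBS. In every gene the 6 vector arrays lie on 1 side of the PBS arrays, from Trim10 with the largest rise of 1.99 to Pnpla3 with the largest fall of -1.57.

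Among the 34 genes the deepest fall was in Pnpla3, a lipid droplet protein whose gene is switched on by ChREBP and by the sterol-responsive factor SREBP-1c. Its log2 signal was 6.63, 6.56 and 7.23 on the HDAd-0 arrays, 6.89, 7.20 and 6.92 on the HDAd-gE3 arrays and 8.65, 8.60 and 8.16 on the PBS arrays. The vector arrays all lay well below the PBS arrays, and the mean was 2.96-fold lower (-1.57 ± 0.17, SE; limma, adjusted p = 0.0279), while the vectors differed from each other by 0.20 ± 0.2 (95% confidence interval -0.25 to 0.65). Mlxipl, which encodes ChREBP itself, read 8.82, 8.74 and 8.67 with HDAd-0 and 9.001, 8.91 and 8.80 with HDAd-gE3, against 9.56, 9.59 and 9.49 with PBS. It fell 1.65-fold (-0.72 ± 0.062; limma, adjusted p = 0.0188), again with no overlap, and the vectors differed by 0.16 ± 0.071 (95% confidence interval -0.0053 to 0.32). These were the only members of the lipogenic list past the threshold. Of its 17 measured genes 7 had a higher and 10 a lower mean, an unadjusted p under 0.05 was reached by 1 in the higher and 4 in the lower direction (7.38% and 5.69% of all genes), and the median was -0.070 against 0.0037 over all genes. Acly, which makes the acetyl-CoA for fat synthesis, differed by -0.17 ± 0.047 (limma, adjusted p = 0.207) and Txnip, a thioredoxin-binding protein and textbook ChREBP target, by 0.17 ± 0.045 in the other direction (adjusted p = 0.196). Ppp1r3b, a subunit that directs a phosphatase to glycogen, read 10.65, 10.22 and 10.58 with HDAd-0, 10.38, 10.60 and 10.46 with HDAd-gE3 and 11.49, 11.47 and 11.04 with PBS, without overlap (-0.85 ± 0.13; limma, adjusted p = 0.0606). The genes that fell are also expressed in liver and fat. The liver marker list had a median of 0.75 and the adipose list one of 0.033. The adipose list mean, relative to all arrays, was 0.06, -0.25 and 0.08 on HDAd-0 replicates 3, 4 and 5, 0.13, 0.03 and -0.07 on HDAd-gE3 replicates 2, 3 and 4, and 0.12, 0.09 and -0.19 on PBS replicates 1, 3 and 4. The groups overlapped for the adipose list, and the part of either tissue in the fall of Pnpla3 and Mlxipl was not tested.

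Genes of the circadian clock lay on both sides of PBS, and the vectors did not differ from each other in any of them at an unadjusted p under 0.05. The clock is a loop in which the activators Arntl (BMAL1), Clock and Npas2 switch on the repressors of the Per, Cry and Nr1d (REV-ERB) families and output factors such as Dbp by binding the E-box, and the REV-ERB proteins in turn shut down Arntl, Npas2, Nfil3 and Cry1. Dbp passed the threshold. It read 12.75, 12.56 and 12.70 with HDAd-0, 12.69, 12.59 and 12.69 with HDAd-gE3 and 12.23, 12.15 and 12.15 with PBS, a 1.4-fold rise (0.49 ± 0.058; limma, adjusted p = 0.0408) with vector groups that differed by -0.010 ± 0.068. Its second, dimmer probe set differed by 0.80 ± 0.066. None of the other clock genes passed over all genes. Arntl was at 8.13, 8.16 and 7.46 with HDAd-0, 8.00, 8.38 and 8.33 with HDAd-gE3 and 8.91, 8.97 and 9.01 with PBS (-0.89 ± 0.16; limma, adjusted p = 0.0804). Cry1 was at 9.76, 9.85 and 10.23 with HDAd-0, 9.62, 9.66 and 9.87 with HDAd-gE3 and 10.47, 10.40 and 10.53 with PBS (-0.64 ± 0.11; adjusted p = 0.0725). In both genes all vector arrays lay below all PBS arrays. Ciart, a clock-controlled repressor, lay the other way, at 7.56, 7.70 and 7.76 with HDAd-0, 7.79, 7.56 and 7.67 with HDAd-gE3 and 7.31, 7.29 and 7.22 with PBS (0.40 ± 0.068; limma, adjusted p = 0.0725).

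Of the 18 measured clock genes 5 were higher and 5 lower by an unadjusted p under 0.05, against 7.38% and 5.69% of all genes. The 5 higher were Dbp, Ciart, Nr1d1 (0.69 ± 0.15), Nr1d2 (0.21 ± 0.05) and Per1 (0.58 ± 0.14), and the 5 lower were Arntl, Cry1, Clock (-0.28 ± 0.054), Npas2 (-0.70 ± 0.21) and Nfil3 (-0.46 ± 0.13). Nr1d1, Nr1d2, Clock, Npas2 and Nfil3 are named here to complete the counts, after their values were seen. All 6 vector arrays lay above PBS in 5 clock genes (4.57% of all genes) and below PBS in 4 (2.72%). Single arrays departed from their group: HDAd-0 replicate 5 had Arntl at 7.46 and Nr1d1 at 9.93, against 8.13 and 8.16, and 10.61 and 10.73, on the others of its group. The median of the list was 0.086, since its genes moved both ways, with 0.064 for HDAd-0 and 0.093 for HDAd-gE3 against the same PBS arrays.

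The E-box was looked for in the promoters of the clock genes, because it is the letter run that the clock activators bind. The letters CACGTG (the same on both strands) were sought in the window from 250 bases before to 50 bases after the start. They stood in 5 of the 16 clock genes with a promoter in the RefSeq table (build GRCm38.p6). A gene counted if any of its windows held the letters, as 8.09% of all 27025 genes did (7.15% of all 32851 windows). Ciart and Cry1 are shown because both carry the letters, yet Ciart was higher and Cry1 lower with the vectors. The capitals mark CACGTG. The Ciart window is chr3:95882179-95882478 and the Cry1 window chr10:85185005-85185304, both on the minus strand.
Ciart: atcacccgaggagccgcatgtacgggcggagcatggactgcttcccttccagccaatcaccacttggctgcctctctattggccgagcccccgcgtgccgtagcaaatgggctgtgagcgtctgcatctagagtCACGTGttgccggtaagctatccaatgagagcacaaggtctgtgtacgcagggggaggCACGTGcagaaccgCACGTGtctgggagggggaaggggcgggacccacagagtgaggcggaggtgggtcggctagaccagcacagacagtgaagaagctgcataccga
Cry1: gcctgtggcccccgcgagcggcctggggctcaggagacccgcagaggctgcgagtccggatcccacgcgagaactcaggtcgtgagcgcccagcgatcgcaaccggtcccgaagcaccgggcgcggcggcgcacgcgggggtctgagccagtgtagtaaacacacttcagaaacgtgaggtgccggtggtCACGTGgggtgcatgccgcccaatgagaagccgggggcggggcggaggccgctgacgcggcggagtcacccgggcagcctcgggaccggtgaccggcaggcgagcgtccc
Ciart held the run 3 times and Cry1 held it 1 time. The other members with a match were Per1, Bhlhe41 and Tef, of which Per1 had an unadjusted p under 0.05 and the latter pair did not. A match describes the letters in the window and nothing about binding in these aortas.

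**Figure D2:**
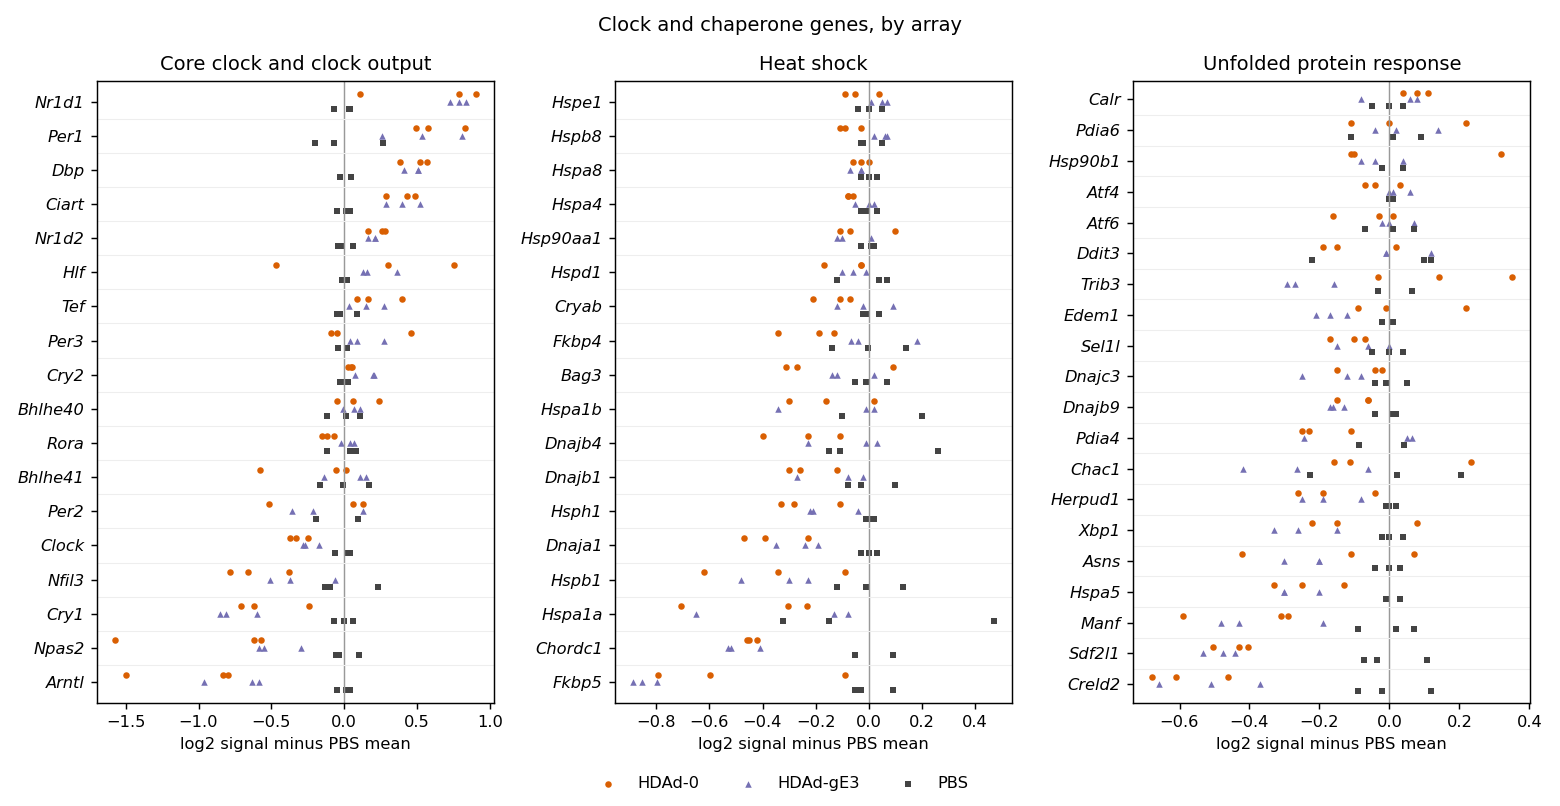
Log2 signal of each array minus the mean of the 3 PBS arrays (horizontal axes) for the measured members of the clock, heat shock and unfolded protein response lists (vertical axes, sorted by the shared change). Points are single arrays, orange circles HDAd-0, purple triangles HDAd-gE3 and dark squares PBS. Clock genes spread to both sides, from Nr1d1 at 0.69 to Arntl at -0.89, while the chaperone genes with the largest differences, such as Chordc1 at -0.46 and Creld2 at -0.55, lie to the left.

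Most chaperone genes had lower means with the vectors, and few of them passed the threshold. Chordc1, a co-chaperone of Hsp90 that is induced by heat shock factor 1, read 11.04, 11.08 and 11.05 with HDAd-0, 10.97, 10.98 and 11.09 with HDAd-gE3 and 11.45, 11.45 and 11.59 with PBS. It fell 1.38-fold without overlap (-0.46 ± 0.054; limma, adjusted p = 0.0375), and the vectors differed by -0.045 ± 0.062 (95% confidence interval -0.19 to 0.097). Hspa4l, a member of the Hsp110 family of nucleotide exchange factors that was outside the list, fell as well (-0.38 ± 0.055; limma, adjusted p = 0.0453), with 9.46, 9.37 and 9.33 with HDAd-0, 9.58, 9.58 and 9.53 with HDAd-gE3 and 9.78, 9.94 and 9.84 with PBS. All of its 5 probe sets differed in that direction. Within the heat shock list all 18 measured genes had a lower mean with the vectors, 6 of them at an unadjusted p under 0.05 (5.69% of all genes), and the median was -0.12, with -0.19 for HDAd-0 and -0.073 for HDAd-gE3. With a second quantile normalization 17 of 18 were lower. Chordc1 was the single member past the threshold. Dnaja1, an Hsp40 protein, differed by -0.31 ± 0.066 (limma, adjusted p = 0.133) and Hsph1, an Hsp110 protein, by -0.20 ± 0.066 (adjusted p = 0.267), both without overlap of the arrays. Fkbp5, an Hsp90 co-chaperone that is also a standard glucocorticoid target, read 9.99, 10.50 and 9.80 with HDAd-0, 9.79, 9.70 and 9.74 with HDAd-gE3 and 10.68, 10.54 and 10.56 with PBS (-0.67 ± 0.13; limma, adjusted p = 0.112). HDAd-0 replicate 4 lay close to the PBS arrays for this gene.

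In the endoplasmic reticulum, Sdf2l1, a partner of the chaperone BiP, read 9.01, 9.08 and 9.11 with HDAd-0, 8.98, 9.04 and 9.07 with HDAd-gE3 and 9.48, 9.62 and 9.44 with PBS. It fell 1.38-fold (-0.46 ± 0.057; limma, adjusted p = 0.042), with a vector difference of -0.039 ± 0.066 (95% confidence interval -0.19 to 0.11). Creld2, a secreted protein made during endoplasmic reticulum stress, had 10.02, 10.24 and 10.09 with HDAd-0, 10.04, 10.19 and 10.33 with HDAd-gE3 and 10.68, 10.82 and 10.61 with PBS, and missed the threshold (-0.55 ± 0.084; limma, adjusted p = 0.0583). Hspa5, which encodes BiP, differed by -0.25 ± 0.057 (adjusted p = 0.148) and Manf, another stress-induced secreted factor, by -0.38 ± 0.093 (adjusted p = 0.168). In each of these 4 genes the vector arrays lay below the PBS arrays. Of the 20 measured genes of the unfolded protein response 17 were lower in mean and 3 higher, 7 were lower and none higher at an unadjusted p under 0.05 (5.69% and 7.38% of all genes), and all 6 vector arrays lay below PBS in 6 (2.72% of all genes). The median was -0.12, with -0.094 for HDAd-0 and -0.16 for HDAd-gE3. With median centring 18 of 20 were lower. Ppp1r15a (GADD34), a phosphatase subunit that restores translation late in that response and was outside the list, moved the other way. It read 8.78, 8.89 and 8.78 with HDAd-0, 9.10, 8.95 and 9.16 with HDAd-gE3 and 8.53, 8.39 and 8.44 with PBS, and rose 1.41-fold (0.49 ± 0.065; limma, adjusted p = 0.0421; vector difference 0.26 ± 0.075).

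Promoter windows of chaperone genes are shown because each stress pathway has a known letter run. The heat shock element was searched as GAA, TTC and GAA with 2 bases of any kind between each, and the endoplasmic reticulum stress element (ERSE) as CCAAT and CCACG with 9 bases of any kind between them, both on either strand. The heat shock run stood in 4 of 15 heat shock genes with a promoter and in 0.662% of all genes with a promoter. The ERSE stood in 6 of 18 unfolded protein response genes with a promoter and in 0.137% of all genes with a promoter. The capitals mark the runs, in the Creld2 window as read on the opposite strand. The Chordc1 window is chr9:18292017-18292316, the Creld2 window chr15:88819396-88819695 and the Hspa5 window chr2:34771840-34772139, all on the plus strand of GRCm38.p6.
Chordc1: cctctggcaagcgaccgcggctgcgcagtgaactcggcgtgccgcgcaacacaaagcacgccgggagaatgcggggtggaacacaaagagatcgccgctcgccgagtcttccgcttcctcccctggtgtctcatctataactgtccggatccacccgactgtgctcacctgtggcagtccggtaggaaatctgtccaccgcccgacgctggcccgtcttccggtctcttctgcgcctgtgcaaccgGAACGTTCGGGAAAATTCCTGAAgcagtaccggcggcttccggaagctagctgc
Creld2: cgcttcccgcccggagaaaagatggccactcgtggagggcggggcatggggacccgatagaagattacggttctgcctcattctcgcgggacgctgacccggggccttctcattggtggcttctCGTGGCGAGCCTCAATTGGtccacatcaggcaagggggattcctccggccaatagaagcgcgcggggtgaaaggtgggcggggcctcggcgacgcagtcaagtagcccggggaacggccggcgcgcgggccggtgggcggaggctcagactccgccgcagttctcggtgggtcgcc
Hspa5: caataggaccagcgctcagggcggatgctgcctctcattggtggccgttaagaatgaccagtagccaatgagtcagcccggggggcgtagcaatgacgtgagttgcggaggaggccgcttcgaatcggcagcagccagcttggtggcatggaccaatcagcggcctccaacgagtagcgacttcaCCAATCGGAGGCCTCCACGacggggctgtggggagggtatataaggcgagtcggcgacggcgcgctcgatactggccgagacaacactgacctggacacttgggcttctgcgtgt
The Chordc1 capitals hold 3 overlapping heat shock runs across the start site, and Chordc1 and Hsph1 were the members with that run and an unadjusted p under 0.05, while Hspd1 and Hspe1 had the run without it. Among the genes with an ERSE, Creld2 and Hspa5 had an unadjusted p under 0.05, and Calr, Dnajc3, Hsp90b1 and Pdia6 did not. Genes with the letters were thus found on either side of that level.

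Immediate early genes, which cells switch on within minutes of a stimulus, mostly had higher means, and 1 of them passed the threshold. Btg2, an antiproliferative factor of this class, read 9.62, 9.72 and 9.80 with HDAd-0, 9.72, 9.82 and 9.93 with HDAd-gE3 and 9.29, 9.38 and 9.26 with PBS. That was a rise of 1.38-fold (0.46 ± 0.065; limma, adjusted p = 0.0452; vector difference 0.11 ± 0.075). Its dimmer probe set differed from PBS by 0.30 ± 0.22, less than the 0.72 by which the vectors differed on it. The nuclear receptor Nr4a1 read 9.99, 10.59 and 10.07 with HDAd-0, 10.75, 10.14 and 10.70 with HDAd-gE3 and 9.30, 9.17 and 9.62 with PBS (1.01 ± 0.18; limma, adjusted p = 0.0838), the largest difference in the list but one that missed the threshold. All vector arrays lay above PBS for both. Of 20 measured members 17 were higher in mean, 7 were higher and none lower at an unadjusted p under 0.05 (7.38% and 5.69% of all genes), and the median was 0.16. Among 14 glucocorticoid targets 3 were higher and 4 lower at that level (again against 7.38% and 5.69%), with Fkbp5 and Zbtb16 (-0.38 ± 0.083; limma, adjusted p = 0.144) lower and Per1 higher.

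Among the 34 genes the largest rises were in genes of red cells and their precursors. Slc4a1 encodes band 3, the anion exchanger of the red cell membrane. It read 11.17, 10.33 and 10.39 on HDAd-0 replicates 3, 4 and 5, 11.51, 11.06 and 11.95 on HDAd-gE3 replicates 2, 3 and 4 and 9.12, 8.98 and 9.66 on PBS replicates 1, 3 and 4. That was a 3.52-fold rise (1.81 ± 0.26; limma, adjusted p = 0.0452), and HDAd-gE3 exceeded HDAd-0 by 0.88 ± 0.29 (95% confidence interval 0.20 to 1.55). Trim10, a factor of terminal erythroid differentiation, read 8.10, 7.06 and 7.05, 8.33, 7.97 and 8.83 and 6.06, 5.58 and 6.08 in the same order and rose 3.96-fold (1.99 ± 0.28; limma, adjusted p = 0.0452; vector difference 0.98 ± 0.32). Car2, a carbonic anhydrase abundant in red cells but present in other cells too, read 12.11, 11.36 and 11.28, 12.22, 12.12 and 12.47 and 10.51, 10.44 and 10.78 and rose 2.55-fold (1.35 ± 0.18; limma, adjusted p = 0.0452; vector difference 0.69 ± 0.21). In all 3 genes every vector array exceeded every PBS array, HDAd-0 replicate 3 lay above the other HDAd-0 arrays, and HDAd-gE3 replicate 4 was the highest of all. Epb42 (1.97 ± 0.31), a membrane partner of band 3, and Alas2 (0.89 ± 0.15), which starts heme synthesis in red cells, missed the threshold (limma, adjusted p = 0.0647 and 0.0723).

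Over the 9 measured erythroid genes the median was 0.89, with 0.44 for HDAd-0 and 1.51 for HDAd-gE3, and 5 were higher and 1 lower by an unadjusted p under 0.05, the level that 7.38% and 5.69% of all genes reached. The list mean, relative to all arrays, was 0.23, -0.19 and -0.21 with HDAd-0, 0.46, 0.18 and 1.46 with HDAd-gE3 and -0.69, -0.68 and -0.56 with PBS, in replicate order, so all vector arrays lay above all PBS arrays. The lower member was Hba-a1, an alpha-globin, whose probe set read only 3.47, 3.55 and 3.65 with HDAd-0, 3.34, 3.39 and 3.43 with HDAd-gE3 and 3.62, 3.74 and 3.54 with PBS, near the bottom of the scale. Klf1, a nuclear factor of erythroid precursors named here after its values were seen, read 6.25, 5.58 and 8.80 on HDAd-gE3 replicates 2, 3 and 4, so replicate 4 alone stood apart, against 5.80, 5.85 and 5.21 with HDAd-0 and 5.72, 5.95 and 5.22 with PBS. Neutrophil genes were highest on the same array. The list averaged 0.23, 0.34 and 1.37 on HDAd-gE3 replicates 2, 3 and 4, -0.03, -0.29 and -0.66 with HDAd-0 and -0.19, -0.30 and -0.48 with PBS, and their median of 0.47 divided into 0.039 for HDAd-0 and 0.77 for HDAd-gE3. With HDAd-0 the neutrophil median thus lay near PBS, unlike the erythroid median of 0.44, though both lists ranked the HDAd-0 arrays in the same order. In pooled tissue, more cells of a type and more RNA per cell cannot be told apart, here or in the lists that follow. Without HDAd-gE3 replicate 4 the erythroid median was 0.57, with 8 of the 9 genes still higher in mean.

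Most endothelial genes had higher means with the vectors, and S1pr1 and Esam passed the threshold. S1pr1, the receptor through which sphingosine-1-phosphate tightens the endothelial barrier, read 8.27, 8.26 and 8.19 with HDAd-0, 7.88, 7.92 and 7.92 with HDAd-gE3 and 7.72, 7.75 and 7.62 with PBS. It rose 1.3-fold (0.38 ± 0.05; limma, adjusted p = 0.0426), by 0.55 with HDAd-0 and 0.21 with HDAd-gE3, a difference of -0.34 ± 0.058 (95% confidence interval -0.47 to -0.20; limma, adjusted p = 0.191 over all genes). The 3 groups stood in 3 separate steps. Esam, an adhesion molecule of endothelial junctions, showed the same order, at 10.39, 10.50 and 10.46, 10.20, 10.13 and 10.19 and 9.96, 9.91 and 9.73, and rose 1.36-fold (0.44 ± 0.062; limma, adjusted p = 0.0452; vector difference -0.27 ± 0.072). The receptor Tie1 (0.39 ± 0.058; limma, adjusted p = 0.0537) and the junction protein Pecam1 (0.43 ± 0.073; adjusted p = 0.0725) missed the threshold, with vector arrays all above PBS. Sphk2, a kinase that makes sphingosine-1-phosphate, read 10.97, 10.91 and 10.99 with HDAd-0, 10.98, 10.78 and 10.95 with HDAd-gE3 and 10.30, 10.27 and 10.35 with PBS and rose 1.54-fold on its brightest probe set (0.62 ± 0.058; limma, adjusted p = 0.0188; vector difference -0.054 ± 0.067). A second Sphk2 probe set differed by -0.19 ± 0.079, so the direction depends on the probe set read.

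Of 26 measured endothelial genes 24 were higher in mean and 2 lower, 14 were higher and none lower at an unadjusted p under 0.05 (7.38% of all genes were higher at that level), and all vector arrays lay above PBS in 9 (4.57% of all genes). The median was 0.23, with 0.36 for HDAd-0 and 0.092 for HDAd-gE3. Averaged over the list, the signal was 0.21, 0.03 and 0.25 on HDAd-0 replicates 3, 4 and 5, -0.01, -0.00045 and -0.05 on HDAd-gE3 replicates 2, 3 and 4 and -0.12, -0.12 and -0.20 on PBS replicates 1, 3 and 4, relative to all arrays. The vector arrays did not overlap the PBS arrays. The other wall cells gave smaller values: the median was 4.96e-05 for 17 smooth muscle genes, 0.066 for 13 fibroblast and adventitial genes and -0.0070 for 25 monocyte and macrophage genes. None of the members of those 3 lists passed the threshold. The monocyte and macrophage median was 0.071 with HDAd-0 and -0.072 with HDAd-gE3. Of its members 10 had an unadjusted p under 0.05 between the vectors (limma, 12.9% of all genes). Among 16 leukocyte adhesion genes 4 were higher and none lower at an unadjusted p under 0.05 (7.38% and 5.69% of all genes), led by F11r, a tight junction adhesion molecule (0.38 ± 0.074; limma, adjusted p = 0.104), and the median was 0.070.

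**Figure D3:**
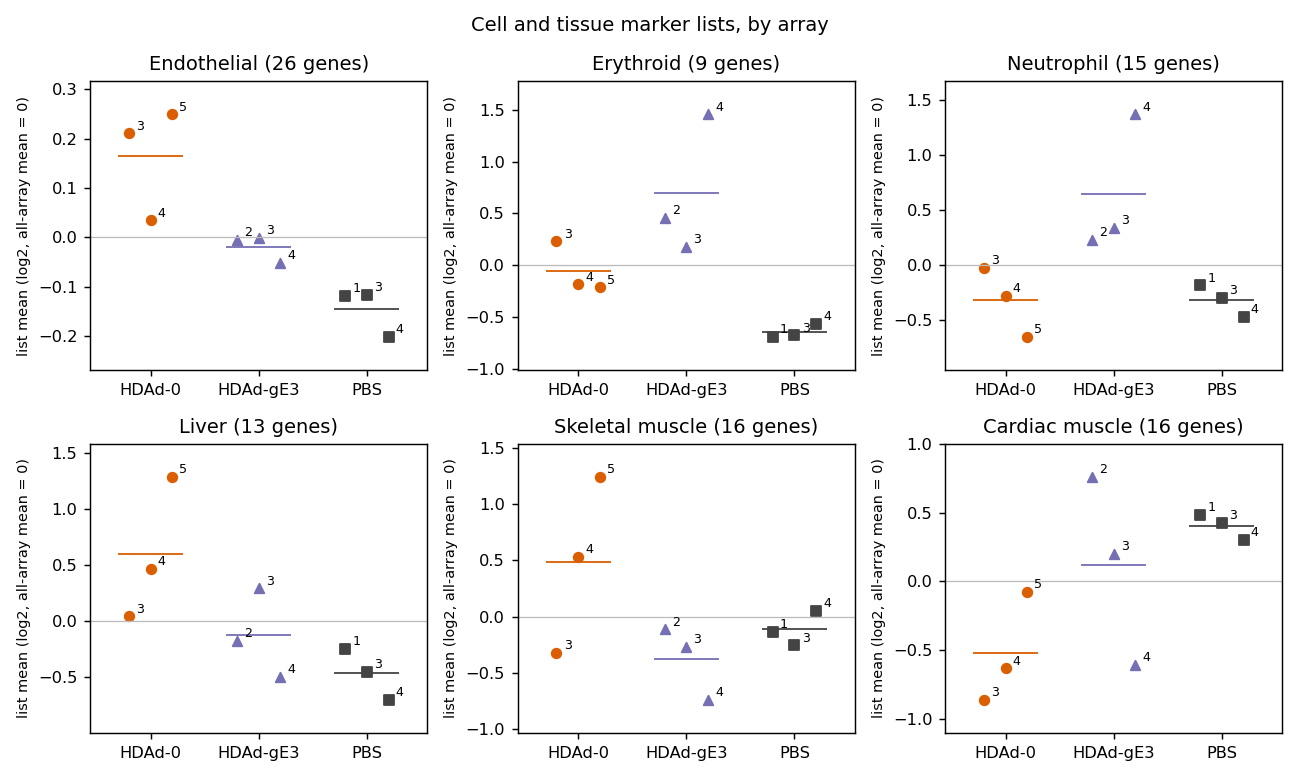
Mean log2 signal of 6 cell and tissue marker lists on each array, relative to the mean over all arrays (vertical axes), by group (horizontal axes). Points are arrays numbered by replicate and lines are group means; endothelial and erythroid means of the 6 vector arrays lie above the PBS arrays, while HDAd-gE3 replicate 4 stands highest for neutrophil genes at 1.37 and HDAd-0 replicate 5 for liver genes at 1.28.

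Genes of antigen presentation were higher in part. Ciita, the master regulator of MHC class II genes, read 7.09, 7.26 and 7.48 with HDAd-0, 6.97, 6.93 and 7.17 with HDAd-gE3 and 6.58, 6.42 and 6.50 with PBS, and rose 1.57-fold (0.65 ± 0.093; limma, adjusted p = 0.0453; vector difference -0.26 ± 0.11). Its 2 dimmer probe sets differed by 0.080 and 0.21. H2-Eb1, a class II beta chain, differed by 0.36 ± 0.084 (limma, adjusted p = 0.159), and over 12 class II genes the median was 0.24, with 0.37 for HDAd-0 and 0.16 for HDAd-gE3. Of these, 4 were higher and none lower at an unadjusted p under 0.05, against 7.38% and 5.69% of all genes. Other cells that carry class II were read beside it. The median was 0.086 for dendritic cell genes and 0.20 for B and plasma cell genes, and the dendritic list mean was 0.11, 0.06 and 0.30 with HDAd-0, -0.22, -0.06 and 0.03 with HDAd-gE3 and -0.11, -0.01 and -0.11 with PBS, which overlapped between vectors and PBS. Their part in the Ciita result was not tested.

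In class I presentation no gene passed, and 4 of 14 were higher and none lower at an unadjusted p under 0.05 (7.38% and 5.69% of all genes). Psmb9, a subunit of the immunoproteasome, read 9.85, 9.73 and 10.20 with HDAd-0, 9.72, 9.92 and 9.86 with HDAd-gE3 and 9.40, 9.29 and 9.30 with PBS (0.55 ± 0.1; limma, adjusted p = 0.0937). Tap1, the peptide transporter, differed by 0.40 ± 0.092 (adjusted p = 0.158). Both are induced by interferons, and both had every vector array above every PBS array. Among 29 interferon-stimulated genes 5 were higher and none lower at that level (against the same 7.38% and 5.69%), and none passed. Rsad2 (viperin), an antiviral enzyme, read 12.79, 12.33 and 12.54 with HDAd-0, 12.84, 12.78 and 12.70 with HDAd-gE3 and 11.98, 11.99 and 12.23 with PBS (0.60 ± 0.1; limma, adjusted p = 0.077), and Mx1, an antiviral GTPase, differed by 0.33 ± 0.092 (adjusted p = 0.207). The dimmer probe sets of Rsad2 differed by 0.92 ± 0.15 and 1.47 ± 0.25. The list median was 0.089, with 0.22 for HDAd-0 and 0.014 for HDAd-gE3. Without HDAd-0 replicate 5 the median was 0.044.

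Inflammatory genes lay on both sides of PBS. Ccl3, a chemokine that recruits monocytes, read 10.43, 10.29 and 10.53 with HDAd-0, 10.15, 10.55 and 10.29 with HDAd-gE3 and 10.79, 10.97 and 10.98 with PBS, all vector arrays below PBS (-0.54 ± 0.097; limma, adjusted p = 0.0804). Il1b, the cytokine interleukin-1 beta, had every vector array above PBS (0.42 ± 0.13; adjusted p = 0.26), and Ccr2, the monocyte receptor for Ccl2, differed by 0.45 ± 0.092 (adjusted p = 0.126). Neither the chemokine list (25 genes, median 0.024), the cytokine list (21 genes, median 0.012) nor the complement list (12 genes, median 0.040) had a member past the threshold. In all 3 lists the medians of the vectors taken singly lay on opposite sides of PBS. They were 0.11 with HDAd-0 and -0.17 with HDAd-gE3 for chemokines, 0.081 and -0.061 for cytokines and 0.12 and -0.041 for complement. Between the vectors 9, 7 and 6 members had an unadjusted p under 0.05 (limma, 12.9% of all genes). Sensors of nucleic acid had 4 of 19 higher and 1 lower by an unadjusted p under 0.05 (7.38% and 5.69% of all genes), the lower being Mavs, the adaptor of RNA sensing (-0.38 ± 0.089; limma, adjusted p = 0.159). On that probe set the vectors also differed from each other by -0.38. A second Mavs probe set of similar brightness differed from PBS by only -0.086 ± 0.073. Receptors that adenovirus can use gave a median of 0.0038 over 15 genes.

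The remaining genes past the threshold belonged to no list. Apol11b, of the apolipoprotein L family, read 12.12, 11.69 and 11.76 with HDAd-0, 12.14, 12.13 and 12.32 with HDAd-gE3 and 10.84, 10.79 and 11.15 with PBS and rose 2.15-fold (1.10 ± 0.12; limma, adjusted p = 0.0252; vector difference 0.34 ± 0.13). A second probe set gave 1.17. Slc7a5, a transporter of large neutral amino acids, read 9.78, 9.76 and 9.62, 9.91, 9.78 and 9.93 and 9.27, 9.25 and 9.23 in the same order and rose 1.47-fold (0.55 ± 0.057; limma, adjusted p = 0.0252). Both genes had vector arrays entirely above the PBS arrays. Fam117a rose by 0.69 ± 0.087, the secreted leucine-rich repeat protein Lrrc17 by 0.60 ± 0.075, the calmodulin-dependent kinase subunit Camk2b by 0.52 ± 0.074, the cyclin D-binding protein Ccndbp1 by 0.49 ± 0.069 and the transmembrane collagen Col23a1 by 0.44 ± 0.061. Their limma adjusted p lay at 0.0421, 0.042, 0.0452, 0.0452 and 0.0452. All 3 probe sets of Col23a1 gave nearly the same value, while the second, dimmer probe set of Lrrc17 differed by -0.070. To complete the count, named after their values were seen, Morn3 (0.36), the intracellular growth factor homologue Fgf14 (0.44), the adaptor Gipc1 (0.33), Rufy2 (0.43), Nrde2 (0.43) and the mitochondrial sodium-calcium exchanger Slc8b1 (0.43) rose as well.

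Among the falling genes, Lin7a, a scaffold protein of cell junctions, read 5.66, 6.10 and 6.10 with HDAd-0, 5.94, 5.86 and 5.89 with HDAd-gE3 and 6.62, 6.77 and 6.87 with PBS and fell 1.78-fold (-0.83 ± 0.11; limma, adjusted p = 0.0421). Lonrf3, a ring finger protein, fell 1.45-fold (-0.53 ± 0.069; limma, adjusted p = 0.0421), and Pde7a, which breaks down cyclic AMP, 1.29-fold (-0.37 ± 0.051; adjusted p = 0.0452). Gpr176, an orphan receptor, had all vector arrays below PBS but missed the threshold (-0.43 ± 0.065; limma, adjusted p = 0.0549). The last pair of the 34 were predicted genes, Gm9706 (0.79) and Gm14057 (-0.81). Of the 34 genes 16 had more than 1 probe set, and in 9 of these all probe sets pointed the same way. In the other 7 (Fgf14, Lin7a, Lrrc17, Nrde2, Pde7a, Rufy2 and Sphk2) at least 1 probe set had the opposite sign.

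Marker genes of liver, heart muscle and skeletal muscle differed between arrays too. Liver genes had a median of 0.75 over 13 genes, with 1.21 for HDAd-0 and 0.36 for HDAd-gE3. Albumin (Alb), their defining marker, read 9.56, 10.66 and 11.67 on HDAd-0 replicates 3, 4 and 5, 9.74, 10.47 and 9.21 on HDAd-gE3 replicates 2, 3 and 4 and 8.76, 8.21 and 8.27 on PBS replicates 1, 3 and 4 (1.81 ± 0.44; limma, adjusted p = 0.163). For Alb every vector array exceeded the PBS arrays, and HDAd-0 replicate 5 was the highest. Of the 13 liver genes 10 were higher and 3 lower in mean. At an unadjusted p under 0.05, 5 were higher and 1 lower (7.38% and 5.69% of all genes). The liver list mean overlapped between vectors and PBS. It was -0.50 on HDAd-gE3 replicate 4, below PBS replicates 1 (-0.25) and 3 (-0.46). Heart muscle genes were lower in mean in all 16 members, with a median of -0.50, and 4 had an unadjusted p under 0.05 (5.69% of all genes were lower at that level). Their list mean was -0.86, -0.63 and -0.08 with HDAd-0, 0.76, 0.20 and -0.61 with HDAd-gE3 and 0.49, 0.42 and 0.30 with PBS in replicate order, so that HDAd-gE3 replicate 2 lay above every PBS array. Myh7, a slow myosin of heart, differed by -1.93 ± 0.54 (limma, adjusted p = 0.211). Skeletal muscle genes had a median of 0.39 that split into 0.72 for HDAd-0 and -0.18 for HDAd-gE3. None of the genes in these 3 lists passed the threshold, and their part in the results above was not tested.

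**Figure D4:**
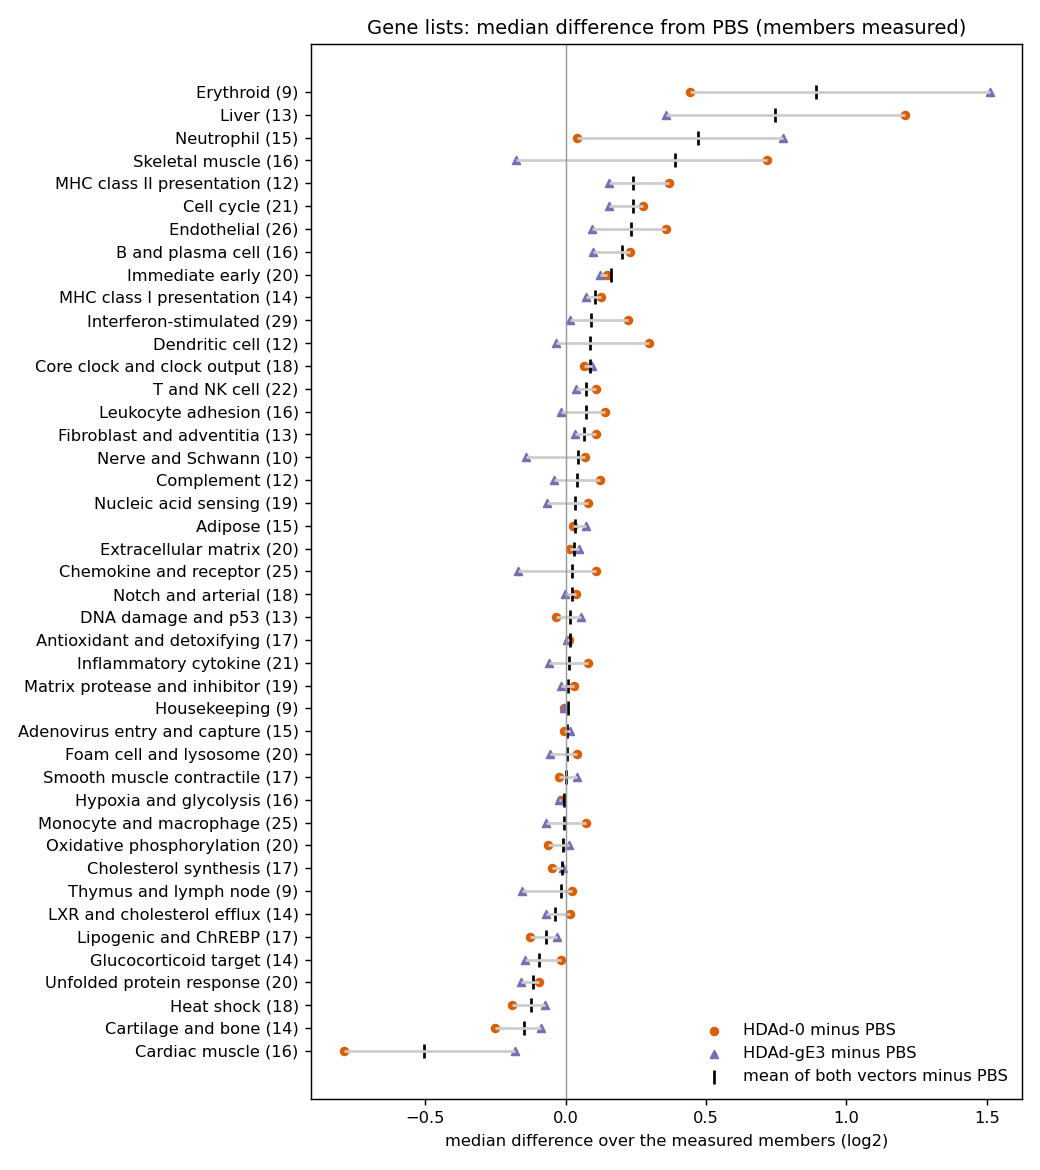
Median log2 difference from PBS over the measured members of each of the 43 gene lists (vertical axis, number of members in brackets), for HDAd-0 (orange circles), HDAd-gE3 (purple triangles) and the mean of both (black bars). Both vectors were compared with the same PBS arrays. Erythroid, liver and endothelial genes lie to the right with both vectors, and heat shock, unfolded protein response and cardiac genes to the left, whereas the skeletal muscle values lie on opposite sides.

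In several other groups no gene passed the threshold. Cell cycle genes were higher in mean in all 21 members (20 of 21 with median centring or a second quantile normalization), with a median of 0.24, but 1 member, the mitotic kinase Aurka (0.52 ± 0.16; limma, adjusted p = 0.244), had an unadjusted p under 0.05. The cell cycle list mean, relative to all arrays, was 0.11, -0.05 and 0.24 with HDAd-0 in replicate order. It was -0.16, -0.11 and 0.43 with HDAd-gE3 and -0.16, -0.17 and -0.13 with PBS, so HDAd-gE3 replicate 2 lay among the PBS arrays. Genes of oxidative phosphorylation (20 genes, median -0.0097) and of extracellular matrix (20 genes, median 0.030) had no member at an unadjusted p under 0.05. Neither did 9 housekeeping genes (median 0.0077). Foam cell and lysosome genes had a median of 0.0037, cholesterol synthesis genes -0.014 and LXR targets -0.037. The foam cell median was 0.040 with HDAd-0 and -0.057 with HDAd-gE3, and that of LXR targets 0.015 and -0.070. Srebf1, which encodes SREBP-1c, differed by -0.26 ± 0.063 (limma, adjusted p = 0.163), and the matrix protease inhibitor Timp4 by -0.79 ± 0.18 with all vector arrays below PBS (adjusted p = 0.15).

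In this balanced design the estimates of the vector difference and of the shared change are uncorrelated, but their p-values share a residual spread. The difference between the vectors passed the threshold in 1 gene, 0.0055% of those tested. That gene was Coch, which encodes the secreted protein cochlin and was also among the 34. It read 8.52, 8.46 and 8.58 with HDAd-0, 7.25, 7.56 and 7.53 with HDAd-gE3 and 8.70, 8.85 and 8.60 with PBS. Its shared change of -0.73 ± 0.086 (limma, adjusted p = 0.0375) therefore averaged -0.19 with HDAd-0 and -1.27 with HDAd-gE3, which differed by -1.08 ± 0.099 (95% confidence interval -1.30 to -0.85; limma, adjusted p = 0.0486). The count of 1 was 0 when any array other than HDAd-0 replicate 4 was left out (limma, 1608 to 2733 genes at an unadjusted p under 0.05) and 10 without that array. Among the other genes of the 34, 17 had an unadjusted p under 0.05 between the vectors, which 12.9% of all genes had. Genes picked for a small p of the shared change tend to have a small residual spread. That lowers the p between the vectors as well, so the count of 17 cannot be read against that share. Of these 17 genes, the erythroid genes Trim10, Slc4a1 and Car2 changed more with HDAd-gE3. So did Camk2b (vector difference 0.44), Ccndbp1 (0.33), Ppp1r15a, Lonrf3 (-0.36), Apol11b (0.34), Lrrc17 (0.22) and Slc7a5 (0.15). The change was larger with HDAd-0 in S1pr1, Esam, Col23a1 (-0.36), Ciita, Hspa4l (0.18), Fgf14 (-0.18) and Morn3 (-0.19). The median size of the vector difference was 0.1833 for the 34 genes, which were picked for a large shared change (median size 0.5075). Over all genes the median size was 0.0967 for the vector difference and 0.0816 for the shared change.

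**Figure D5:**
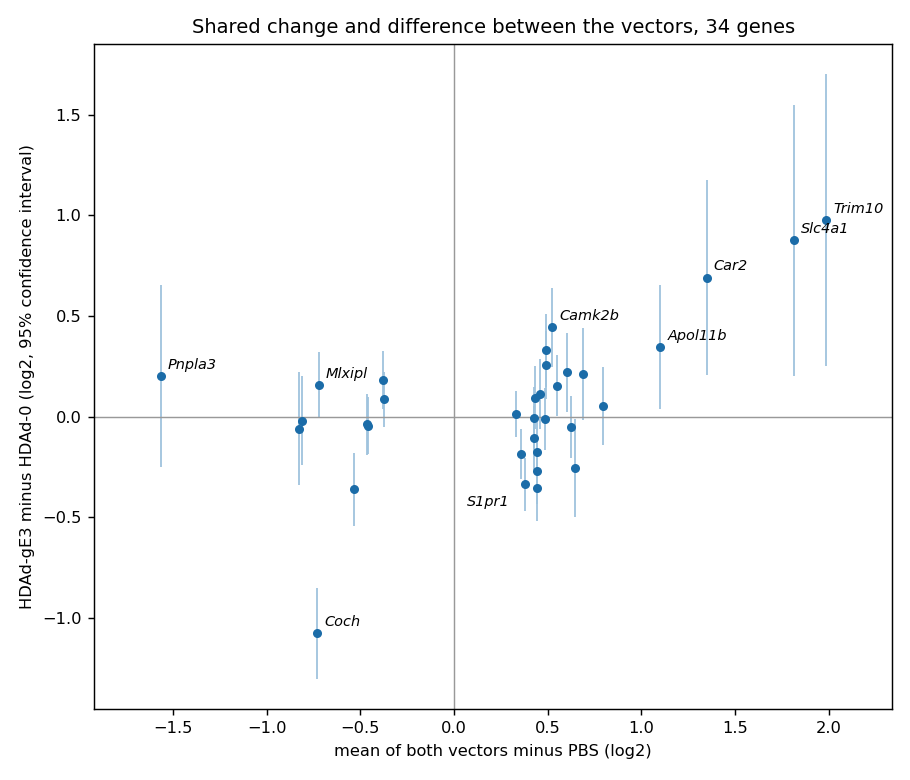
Shared change of the 34 genes (horizontal axis, mean of both vectors minus PBS, log2) against the difference between the vectors (vertical axis, HDAd-gE3 minus HDAd-0, log2). Points are genes and bars are 95% confidence intervals of the vector difference. Coch lies lowest at -1.08, the erythroid genes Trim10, Slc4a1 and Car2 lie upper right, and Pnpla3 and Mlxipl have intervals that include 0.

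Apoe, Il7 and Il7r were read because the genotype and the title concern them. The mouse Apoe probe set read 7.15, 7.16 and 7.64 with HDAd-0, 7.05, 7.08 and 6.72 with HDAd-gE3 and 7.05, 6.79 and 6.80 with PBS (0.25 ± 0.13; limma, adjusted p = 0.467). Since every group lacked Apoe and HDAd-gE3 encodes the human protein, this mouse probe set checks no label. Il7, the cytokine, read 7.66, 7.87 and 7.57, 7.40, 7.45 and 7.54 and 7.79, 7.56 and 7.61 in the same order (-0.072 ± 0.081; limma, adjusted p = 0.743), and Il7r, its receptor alpha chain, 12.03, 11.96 and 12.17, 11.85, 11.92 and 11.85 and 12.09, 12.11 and 12.22 (-0.18 ± 0.061; adjusted p = 0.287). The vector arrays overlapped the PBS arrays for all 3 genes, and Il7 took the opposite sign on its dimmer probe set (0.14 ± 0.084).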

How the data were processed

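RNA of pooled aortas was amplified with FL-Ovation, biotinylated and put on Affymetrix mouse arrays, according to the labels' protocols. The values are the log2 signals that the authors deposited for 45101 probe sets. The submitters' processing notes name RMA (version not given in the sources used here), whose quantile step evens out the arrays and would hide a shift of the bulk of genes. Gene names came from the platform annotation, updated through RefSeq (GRCm38.p6; 34741 probe sets matched by gene identifier): 34945 probe sets had 1 gene, 932 several and 9160 none. The brightest probe set stood for each of 18193 genes.

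With limma 3.58.1 in R 4.3.3, a linear model with 1 mean per group was fitted to the 9 arrays together and moderated by eBayes (6 residual degrees of freedom). The shared change was the mean of both vector groups minus PBS, and the vector difference HDAd-gE3 minus HDAd-0. Tests were two-sided, with Benjamini-Hochberg adjustment over all genes at 0.05. The comparison, the 43 gene lists (695 of 754 genes measured, 3 through a synonym or platform symbol), the rule for named genes and the alternatives were chosen with earlier results of these data known, so lists are described by counts and medians without a test of their own. The rule names, per direction, the 12 called genes of largest change and no overlap (filled by smallest p among brighter genes), up to 4 or 2 members per list by smallest p, Apoe, Il7 and Il7r, and up to 4 genes that also differed between the vectors. Not all are printed. Alternatives were other scalings, filters, probe set choices, models, thresholds and leaving out arrays. On simulated data for this comparison (18193 genes, 10 simulations, 200 changed genes), 67.2% of changes of 0.5, 96.2% of 1 and 100% of 2 on the log2 scale were called, and 5.08% of calls were unchanged genes. The simulated noise was normal and independent between genes, without outlying arrays or a difference between the vectors. These rates therefore need not hold for the real arrays. Figures were drawn with matplotlib 3.10.9. Promoter sequences are RefSeq's.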

Additional observations from a re-analysis of the deposited data

Results flagged for a closer look

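Coch was picked out because the change against PBS differed between the vectors by a test of that difference. HDAd-gE3 minus HDAd-0 was -1.076 on the log2 scale (SE 0.099; limma, adjusted p = 0.0486), with 3 of 3 HDAd-gE3 arrays below all HDAd-0 arrays and the HDAd-0 mean -0.19 from that of PBS. Groups of 3 arrays were too small to look for single arrays far from the others.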

How the results depend on the processing

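The count of 34 genes for the mean change over both vectors moved with most settings. It was 125 at an adjusted p under 0.1, 288 with array weights, 96 with an intensity trend, 70 with a filter on dim genes (fewer genes tested), 21 with the most variable and 18 with the mean of probe sets, 18 with median centring, 14 with a second quantile normalization, 13 with the vector arrays as 1 group, 8 over every probe set and 6 with the 3' minus 5' covariate. With the replicate block it was 0 (limma, 2010 genes at an unadjusted p under 0.05), and likewise 0 when HDAd-0 replicate 5 and HDAd-gE3 replicate 4 were both left out (2148 such genes). Leaving out 1 array gave 0 to 44. All 34 kept their direction in these fits, except that 33 did with the mean and 30 with the most variable probe set. Group numbers coincide only for replicates 3 and 4, and no label pairs the arrays.

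For the vector difference the count of 1 was 0 with array weights (3197 genes at an unadjusted p under 0.05), the covariate (1836), every probe set (2177), the most variable probe set (2382), a second quantile normalization (2003) and the replicate block (2323), all by limma, and 0 to 10 without 1 array. The fit with vectors as 1 group gives no such value.

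Single genes changed sign in 14 cases, 13 of them with another choice of probe set. With the most variable probe set the differences were 0.018 for Lox, -0.023 for Samhd1, -0.13 for Nrde2, 0.47 for Mt1, -0.084 for Rufy2, -0.30 for Fgf14, 0.14 for Il7, -0.24 for Cald1 and 0.12 for Pde7a. With the mean of probe sets they were 0.11 for Mt1, -0.053 for Fgf14, 0.032 for Il7 and -0.022 for Cald1, and Il7 was 0.043 with the replicate block. Of the list medians under alternatives, 19 moved by more than their spread between arrays and 884 did not. Beyond these constructions the cause was not tested. The 3 arrays per group limit what can be called.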

Other observations

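Some genes with large differences passed no threshold and stood in no list. They were chosen after their values were seen. Cyp3a11, a drug-metabolising enzyme best known from liver, read 5.49, 5.68 and 6.84 on HDAd-0 replicates 3, 4 and 5, 5.47, 7.14 and 5.40 on HDAd-gE3 replicates 2, 3 and 4 and 3.67, 3.47 and 3.43 with PBS. It was higher in 6 of 6 vector arrays (2.48 ± 0.43, SE; limma, adjusted p = 0.0725). Hsd17b13, a lipid droplet enzyme of liver, had the same pattern at low signal (1.14 ± 0.2; limma, adjusted p = 0.0745). Angptl8, a secreted regulator of lipoprotein lipase that rises with feeding, lay below PBS in 6 of 6 vector arrays, at 7.54, 6.703 and 7.58 with HDAd-0, 7.55, 7.50 and 7.16 with HDAd-gE3 and 9.12, 8.91 and 8.31 with PBS (-1.44 ± 0.24; limma, adjusted p = 0.0658). The vector arrays of Angptl8 and of Pnpla3 both lay below every PBS array.

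Tyrp1, a melanin-synthesis enzyme of pigment cells, read 6.33, 6.90 and 5.96 with HDAd-0, 6.14, 6.17 and 5.30 with HDAd-gE3 and 7.98, 7.90 and 7.47 with PBS (-1.65 ± 0.26; limma, adjusted p = 0.0611). Cirbp, a cold-inducible RNA-binding protein with a daily rhythm in many tissues, was higher in 6 of 6 vector arrays (0.66 ± 0.1; limma, adjusted p = 0.0611), with vectors that differed by -0.046 ± 0.12. Hyou1, an endoplasmic reticulum chaperone outside the list used, was lower in 6 of 6 (-0.32 ± 0.055; limma, adjusted p = 0.0725; vector difference -0.0016 ± 0.064). Ccl24, an eosinophil chemokine, differed by -0.78 ± 0.12 (adjusted p = 0.0614), with -0.37 for HDAd-0 and -1.20 for HDAd-gE3.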
